A study of Mus musculus with 6 samples.

Results

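The 8 genes Vamp1, Vamp2, Snap25, Stx1a, Cplx1, Cplx2, Syt1 and Syt7 encode the machinery that fuses synaptic vesicles with the plasma membrane. They were taken by symbol from the 54134 symbols counted in each of 6 bulk libraries of mouse prefrontal cortex RNA, and all 8 were among the 18705 genes with enough reads to be tested. The libraries fall into 3 groups of 2, each library from a different mouse aged 6 to 8 weeks. The first group was wild type (a cross of C57BL/6 and C3H) given vehicle, called wild type here. The second carried the genotype Shank3 +/∆C and was given vehicle, called vehicle mutants here. The last group had the same Shank3 +/∆C genotype and was given GSK-LSD1 (GSK-LSD1 mutants here), a small molecule inhibitor of the histone demethylase LSD1 (the product of Kdm1a). Shank3 encodes a scaffold protein of the postsynaptic density, and the mutants carry 1 allele without its C-terminal part, so an intact allele remains. Vehicle was shared by both untreated groups, and a wild-type group given GSK-LSD1 was not analysed here, so values with the inhibitor are known only in the mutant. Sex, dose and duration of treatment are not stated in the labels. Vehicle mutants against wild type shows what goes with the genotype, GSK-LSD1 against vehicle mutants what goes with the inhibitor, and GSK-LSD1 mutants against wild type what goes with both together.

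Fusion at a nerve terminal is driven by SNARE proteins, which zip together into a tight helical bundle across the gap between 2 membranes. Synaptobrevins (Vamp1 and Vamp2) sit in the vesicle, while syntaxin-1A (Stx1a) and SNAP-25 (Snap25) sit in the plasma membrane. Complexins (Cplx1 and Cplx2) bind the assembled bundle and both hold it back from premature fusion and prime it for fast release. Synaptotagmins include calcium sensors of membrane fusion: synaptotagmin-1 (Syt1) triggers fast, synchronous release in forebrain neurons, and synaptotagmin-7 (Syt7) acts in slower, asynchronous release and in facilitation. In the cortex Vamp2, Cplx2 and Syt1 are the widespread forms of excitatory terminals, while Vamp1 is best known from spinal cord, brainstem and fast-spiking neurons.

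Several of the 8 genes are paralogs, so whether short reads can be told apart between them bears on every comparison of 1 paralog with another. The coding sequences of GENCODE M21 (build GRCm38) show how far each pair has diverged, and the stretch around the longest run that both members share is printed for the pairs of complexins and synaptobrevins, with the shared run in capitals, read 5′ to 3′ on the coding strand.
Cplx1: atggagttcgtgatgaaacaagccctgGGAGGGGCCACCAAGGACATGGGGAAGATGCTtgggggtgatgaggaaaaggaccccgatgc
Cplx2: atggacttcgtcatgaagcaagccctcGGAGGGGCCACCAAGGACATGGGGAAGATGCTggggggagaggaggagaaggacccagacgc
Vamp1: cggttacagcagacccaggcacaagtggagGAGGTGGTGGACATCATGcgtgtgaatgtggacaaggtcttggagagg
Vamp2: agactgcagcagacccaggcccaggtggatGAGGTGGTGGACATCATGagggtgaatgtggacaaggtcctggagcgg
In both complexins the shared run covers coding bases 28 to 59, which is 32 bases of a coding sequence of 402. In Vamp1 it covers coding bases 127 to 144 of 513, and in Vamp2 bases 121 to 138 of 489, a run of 18 bases in the part that encodes the SNARE helix. For each gene the transcript with the longest annotated coding sequence was used (Vamp1-202 and Vamp2-202 here), so other transcripts can have shorter ones. The longest run shared by Syt7 and Syt1 was 12 bases. No window of 50 bases from the transcripts of Vamp2, Stx1a, Cplx1 or Syt1 occurred in a transcript of another gene. For Vamp1 0.0686% of such windows did, for Snap25 0.221% and for Cplx2 2.12%. For Syt7 the share was 4.25%, most of it with the noncoding Gm26859, which lies on the opposite strand and overlaps 384 bp of Syt7's exons (5.13% of their length).

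The 8 genes lie on 7 chromosomes of GRCm38, with exons, introns and ends as GENCODE M21 gives them. Vamp1 spans chr6:125215551-125245964 and Vamp2 chr11:69088490-69092384, both on the plus strand. Snap25 spans chr2:136713453-136782428 and Stx1a chr5:135023482-135051100, also on the plus strand. Cplx1 spans chr5:108518554-108550024 on the minus strand, and Cplx2 spans chr13:54371349-54383917 on the plus strand. Syt1 is the longest of the set, at chr10:108497650-109010982 on the minus strand, and Syt7 spans chr19:10389090-10453180 on the plus strand. Counts were made over whole genes, so they do not separate splice forms such as the alternative exons of Snap25 or Syt7.

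Total counts ran from 14133834 to 28646960 reads per library. Each of the 8 genes had at least 571 reads in every library, so counting error was at most 4.18% of a value (Vamp1 in wild-type library 1). Levels are given as CPM (counts scaled to a common library size) after trimmed-mean scaling between libraries. Libraries of 1 group differed far beyond counting error, with a chi-square per degree of freedom of 9.94 to 13.3 over genes, and the p-values below measure the spread between single mice. Shank3 itself lay at 153 and 160 CPM in wild type, 146 and 174 in vehicle mutants and 159 and 148 in GSK-LSD1 mutants. Counts over the whole gene do not show a partial deletion of 1 allele, so this is no check of the genotype. Some marker lists differed between libraries and are set beside the results. The summed level of 14 oligodendrocyte markers was 2557 to 2835 CPM in wild type, 6364 to 6428 in vehicle mutants, and 2602 and 6061 in GSK-LSD1 libraries 1 and 2. That of 10 excitatory neuron markers was 4100 to 4330 in wild type, 3559 to 3588 in vehicle mutants and 3153 to 3617 in GSK-LSD1 mutants. That of 20 markers of hypothalamus, septum and preoptic area, regions other than the labelled one, was 157.5 and 129.5 in wild type, 131 and 134 in vehicle mutants and 251.7 and 321.5 in GSK-LSD1 mutants, with up to 8 of the 20 at 0 in a library. Most of it was 1 gene, Hap1, at 125.1 and 99.5 in wild type, 98.9 and 89.1 in vehicle mutants and 218 and 232 in GSK-LSD1 mutants. The other 19 summed to 32.4 and 29.9 in wild type, 32.5 and 45.3 in vehicle mutants and 33.6 and 89.2 in GSK-LSD1 libraries 1 and 2, so without Hap1 the first was near wild type and the second the highest of all 6. The part of this list in the GSK-LSD1 values was not tested. Neuronal markers of the labelled tissue were present in every library. The 15 pan-neuronal markers summed to 6326 to 6677 CPM in wild type, 6411 to 6858 in vehicle mutants and 5891 to 6617 in GSK-LSD1 mutants.

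Together the 8 genes took 0.507% to 0.606% of all reads. Their summed level was 6172 and 6272 CPM in wild type, 5963 and 5524 in vehicle mutants, and 5389 and 4874 in GSK-LSD1 mutants, so the 3 groups did not overlap in the sum. As a plain share of reads they did, since wild-type library 1 held 0.594% and the first vehicle mutant library 0.598%. Per kilobase of exon, Snap25 and Syt1 stood highest, with mean levels over all libraries of 287 and 233 CPM per kb. Their ranges of group means, 262 to 302 for Snap25 and 201 to 276 for Syt1, overlapped. Cplx2, Cplx1, Stx1a and Vamp2 followed at 117, 113, 111 and 93.2 CPM per kb, again with overlapping group means. Syt7 lay at 40.1 CPM per kb and Vamp1 at 4.17, each clear of its neighbour in that order. The plot of levels by library shows the 8 genes side by side.

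**Figure D1:**
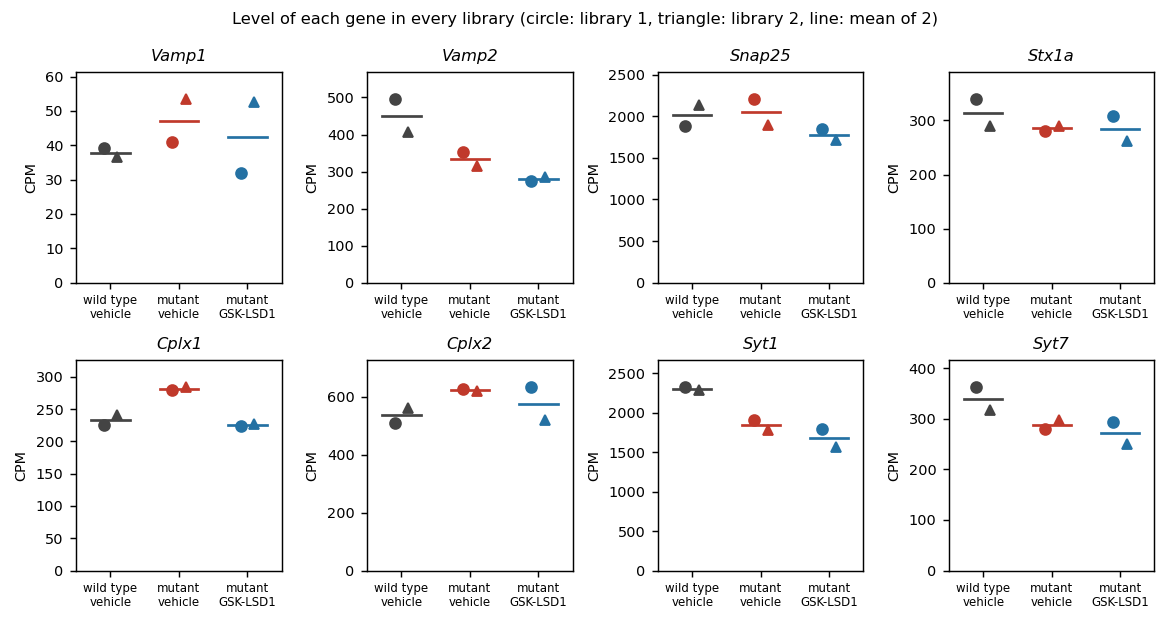
Level of each of the 8 genes in every library, in CPM (linear axis from 0), by group. Circles are library 1, triangles library 2 and lines the mean of 2. Vamp2 steps down from 407 to 495 CPM in wild type to 274 to 286 in GSK-LSD1 mutants, Cplx1 is highest in vehicle mutants, and the 2 GSK-LSD1 libraries of Vamp1 lie apart at 32.0 and 52.6 CPM.

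The synaptobrevin of most cortical vesicles, Vamp2, was at its highest in wild type and at its lowest in GSK-LSD1 mutants. Its level was 495 and 407 CPM in the wild-type libraries, 352 and 315 in vehicle mutants, and 274 and 286 in GSK-LSD1 mutants. The 3 groups did not overlap, and the wild-type libraries differed most between themselves. With GSK-LSD1 Vamp2 fell by 0.69 ± 0.12 (SE) on the log2 scale against wild type, to 0.621 of the wild-type level (edgeR's quasi-likelihood test, Benjamini-Hochberg adjusted p = 0.00648, rank 44 of 18705 genes by p). The adjusted p lay between 1.97e-06 and 0.184 over 19 alternatives, and it missed 0.05 in 2 of them. These were the fit without wild-type library 1, where the log2 difference was -0.54 (adjusted p = 0.184), and scaling to pan-neuronal markers, where it was -0.56 (adjusted p = 0.0546). In vehicle mutants the difference from wild type was -0.43 ± 0.12 and did not pass (edgeR's adjusted p = 0.0751, unadjusted p = 0.00161), and 6 of 19 alternatives called it, with adjusted p from 0.00817 to 0.738. Between GSK-LSD1 and vehicle mutants the difference was -0.25 ± 0.12 (edgeR's adjusted p = 0.873, unadjusted p = 0.0437). Both comparisons with wild type use the same 2 wild-type libraries, so their values are not independent. In tissue RNA, fewer cells of a type and less RNA per cell cannot be told apart, and the excitatory marker sum was also lower in both mutant groups. Its part in the Vamp2 values was not tested. Of the 10 excitatory markers 8 had a negative difference from wild type in vehicle mutants and 9 in GSK-LSD1 mutants. By edgeR's test 1 and 3 of them fell, where 0.994% and 1.99% of all genes were called lower. Slc17a7, the most abundant of them in wild type, had mean levels of 1799 CPM there, 1349 in vehicle mutants and 1295 in GSK-LSD1 mutants. Camk2a differed from wild type by only -0.053 and -0.095, and Slc17a6 was higher by 0.57 and 0.60.

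Vamp1, the second synaptobrevin, was low in these libraries, and its level was 39.1 and 36.6 CPM in wild type, 41.0 and 53.3 in vehicle mutants, and 32.0 and 52.6 in GSK-LSD1 mutants. The libraries of both mutant groups were spread far more than those of wild type, and GSK-LSD1 library 1 was the lowest of all 6. None of its differences passed, at 0.32 ± 0.24 for vehicle mutants against wild type (edgeR's adjusted p = 0.650), -0.17 ± 0.24 for GSK-LSD1 against vehicle mutants (adjusted p = 0.996) and 0.15 ± 0.24 for GSK-LSD1 against wild type (adjusted p = 0.842). Vamp1 was lower in wild type and GSK-LSD1 library 1 than in the other 3 libraries. Of these, vehicle mutant library 1 lay close to wild type (41.0 beside 39.1 and 36.6 CPM). The oligodendrocyte marker sum was low in wild type and in GSK-LSD1 library 1 and clearly high in the other 3. Of its 14 markers 0 passed edgeR's test in any comparison. At edgeR's unadjusted p under 0.05 there were 3, 0 and 0 in the 3 comparisons, beside 14.0%, 5.70% and 15.7% of all genes. Against wild type DESeq2 called 1 and limma-voom 3 in vehicle mutants, where they called 602 and 137 of all 18705 genes. With the mean level of those markers as a covariate, the Vamp1 differences from wild type were -0.27 and -0.14 and that between the mutant groups 0.13. The marker sum differed mostly between groups and between the 2 GSK-LSD1 libraries. This fit therefore cannot separate the markers from the group, and its values are a description. Parvalbumin interneuron markers, of cells in which Vamp1 is known to be used, summed to 506 to 545 CPM in wild type, 464 to 499 in vehicle mutants and 407 to 448 in GSK-LSD1 mutants. The markers did not move together, since 6 of the 10 had a positive difference from wild type in both mutant groups, with medians of 0.09 and 0.10. In vehicle mutants 0 of the 10 passed by edgeR, 1 by DESeq2 (lower) and 0 by limma-voom. By edgeR 3 of the 10 had an unadjusted p under 0.05 there, beside 14.0% of all genes. In GSK-LSD1 mutants against wild type Cox6a2 rose by 1.52 and Kcnc1 fell by 0.66 (edgeR's adjusted p = 0.0262 and 0.0181). In that comparison 0.636% of all genes were called higher and 1.99% lower. The sum of 8 thalamus markers, of a region other than the labelled one, was 132 and 146 CPM in wild type. It was 155 and 185 in vehicle mutants, and 130 and 183 in GSK-LSD1 libraries 1 and 2. The libraries highest in this sum, vehicle mutant library 2 and GSK-LSD1 library 2, were also the highest in Vamp1. Of the 7 tested thalamus markers 0 passed edgeR's test in any comparison. In each mutant group 4 of them had a positive difference from wild type and 3 a negative one. The part of these lists in the Vamp1 values was not tested.

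Reads of Vamp1 per 100 reads of Vamp2 compare the 2 synaptobrevins inside a library and so do not depend on scaling. There were 7.90 and 8.99 in wild type, 11.7 and 16.9 in vehicle mutants, and 11.7 and 18.4 in GSK-LSD1 mutants. All 4 mutant libraries lay above both wild-type libraries. The difference of the log2 ratio was 0.74 for vehicle mutants against wild type and 0.80 for GSK-LSD1 against wild type (two-sided exact permutation p = 0.33 for each, the smallest that 2 libraries against 2 can give). Between the mutant groups it was 0.06 and the libraries overlapped (exact permutation p = 1.0).

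In the plasma membrane, the SNARE partners Snap25 and Stx1a did not pass in any comparison. Snap25, at 1887 and 2141 CPM in wild type, 2203 and 1898 in vehicle mutants and 1842 and 1716 in GSK-LSD1 mutants, overlapped between wild type and vehicle mutants. Both GSK-LSD1 libraries were lower than the other 4. Its differences were 0.03 ± 0.12, -0.21 ± 0.12 and -0.18 ± 0.12 for vehicle mutants against wild type, GSK-LSD1 against vehicle mutants and GSK-LSD1 against wild type (edgeR's adjusted p = 0.957, 0.965 and 0.537). Stx1a lay at 339 and 289 CPM in wild type, 281 and 289 in vehicle mutants and 308 and 261 in GSK-LSD1 mutants. The groups overlapped in every comparison, and the differences were -0.14 ± 0.12, -0.0028 ± 0.12 and -0.14 ± 0.12 in the same order (edgeR's adjusted p = 0.669, 0.999 and 0.624).

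Complexins were higher in vehicle mutants than in wild type, but the differences did not pass. Cplx1 lay at 226 and 241 CPM in wild type, 279 and 284 in vehicle mutants, and 224 and 227 in GSK-LSD1 mutants. The 2 vehicle mutant libraries were close to each other and above the other 4, and the GSK-LSD1 libraries were at the wild-type level. The differences were 0.27 ± 0.10 for vehicle mutants against wild type (edgeR's adjusted p = 0.228, unadjusted p = 0.0174), -0.32 ± 0.10 for GSK-LSD1 against vehicle mutants (adjusted p = 0.557, unadjusted p = 0.00587) and -0.05 ± 0.10 for GSK-LSD1 against wild type (adjusted p = 0.873). The first 2 of these share the vehicle mutant libraries, so a high value there enters both, with opposite signs. Over 19 alternatives each, the first stayed positive, from 0.22 to 0.34, and the second negative, from -0.37 to -0.21, and 0 of them called either one.

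Cplx2 lay at 510.2 and 562 CPM in wild type, 625 and 621 in vehicle mutants, and 632 and 519 in GSK-LSD1 mutants. The GSK-LSD1 libraries spanned nearly the whole range of the gene, library 1 with vehicle mutants and library 2 with wild type. Its differences were 0.22 ± 0.12, -0.11 ± 0.12 and 0.10 ± 0.12 (edgeR's adjusted p = 0.436, 0.990 and 0.751). Reads of Cplx1 per 100 of Cplx2 were 44.2 and 43.0 in wild type and 44.6 and 45.7 in vehicle mutants. Both vehicle mutant libraries were thus higher, by a narrow margin. With GSK-LSD1 the ratio was 35.4 and 43.8. The log2 ratio of GSK-LSD1 against vehicle mutants differed by -0.20, and by -0.05 without GSK-LSD1 library 1.

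Of the calcium sensors, Syt1 was lower in both mutant groups than in wild type. Its level was 2320 and 2283 CPM in wild type, 1908 and 1774 in vehicle mutants, and 1789 and 1569 in GSK-LSD1 mutants. The wild-type libraries agreed closely and lay above all 4 mutant libraries, which overlapped between treatments. With GSK-LSD1 Syt1 fell by 0.45 ± 0.12 against wild type, to 0.730 of its level, with an adjusted p just under the threshold (edgeR's adjusted p = 0.0498). This call was lost in 13 of 19 alternatives, over which the adjusted p ran from 4.57e-04 to 0.423 while the difference stayed between -0.56 and -0.34. The highest came without wild-type library 1 (-0.45, adjusted p = 0.423) and the next without GSK-LSD1 library 2 (-0.36, adjusted p = 0.247). In vehicle mutants the difference was -0.32 ± 0.12 (edgeR's adjusted p = 0.211, unadjusted p = 0.0147), and between the mutant groups it was -0.13 ± 0.12 (adjusted p = 0.989).

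Syt7 lay at 362 and 317 CPM in wild type, 279.6 and 298 in vehicle mutants, and 294 and 250.7 in GSK-LSD1 mutants. Both wild-type libraries were above all mutant libraries, by a narrow margin for wild-type library 2. Its differences were -0.23 ± 0.11 (edgeR's adjusted p = 0.381), -0.08 ± 0.11 (adjusted p = 0.996) and -0.32 ± 0.12 (adjusted p = 0.173). Reads of Syt7 per 100 reads of Syt1 were 15.6 and 13.9 in wild type, 14.6 and 16.8 in vehicle mutants, and 16.5 and 16.0 in GSK-LSD1 mutants. Both GSK-LSD1 libraries lay above both wild-type libraries, with a log2 ratio higher by 0.14 (exact permutation p = 0.33, the smallest possible). Vehicle mutants overlapped with wild type and with GSK-LSD1 mutants.

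**Figure D2:**
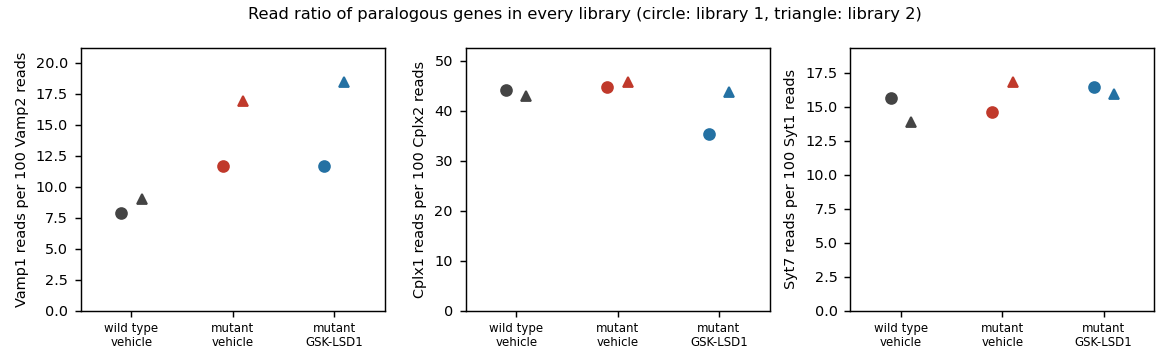
Reads of one paralog per 100 reads of the other in every library (linear axes from 0), for Vamp1 to Vamp2, Cplx1 to Cplx2 and Syt7 to Syt1. Vamp1 to Vamp2 is 7.90 to 8.99 in wild type and 11.7 to 18.4 in the 4 mutant libraries, Syt7 to Syt1 lies between 13.9 and 16.8 throughout, and the low point of Cplx1 to Cplx2 is GSK-LSD1 library 1 at 35.4.

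Over the 8 genes, 0 passed in vehicle mutants against wild type by edgeR's test, where 0.278% of all tested genes were called higher and 0.994% lower. At an unadjusted p under 0.05 there were 3, Cplx1 higher and Vamp2 and Syt1 lower, against 14.0% of all genes, and DESeq2 called 2 of them, Vamp2 and Syt1, and limma-voom 0. Groups did not overlap for 3 higher genes (Vamp1, Cplx1 and Cplx2) and 3 lower ones (Vamp2, Syt1 and Syt7), where 23.1% of all genes did so upward and 23.1% downward. The median of the 8 log2 differences was -0.06, beside 0.02 for all tested genes, with 4 positive and 4 negative.

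Between GSK-LSD1 and vehicle mutants 0 of the 8 passed, with 0.102% of all genes called higher and 0.00535% lower, and DESeq2 and limma-voom also called 0. There were 2 at an unadjusted p under 0.05, Vamp2 and Cplx1, both lower, against 5.70% of all genes. The 2 groups did not overlap for 3 lower genes (Vamp2, Snap25 and Cplx1) and for 0 higher ones, beside 16.6% and 17.0% of all genes. All 8 log2 differences were negative under trimmed-mean scaling, with a median of -0.15 beside -7e-04 for all genes. The 15 pan-neuronal markers were also mostly lower, with a median of -0.12, 12 negative and 3 positive. Of the 8 genes, Stx1a had a difference of 0.0041 with scaling by library size. Scaling to pan-neuronal markers, which moves the median of all genes up to 0.11, gave Stx1a and Syt7 differences of 0.11 and 0.02.

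Between GSK-LSD1 and wild type 2 of the 8 fell, Vamp2 and Syt1, where 1.99% of all genes were called lower and 0.636% higher. There were 3 at an unadjusted p under 0.05, with Syt7 as the one that did not pass, against 15.7% of all genes. The groups did not overlap for 4 lower genes (Vamp2, Snap25, Syt1 and Syt7) and 0 higher ones, beside 22.4% and 23.5% of all genes. The median was -0.16 beside 0.02 for all genes, and Cplx2 and Vamp1 were the 2 with a positive value. For the 15 pan-neuronal markers the median was also -0.16, with 10 negative and 5 positive. Scaling to pan-neuronal markers, which moves the median of all genes to 0.14, left 0 of the 8 called and gave Cplx1 a value of 0.07.

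**Figure D3:**
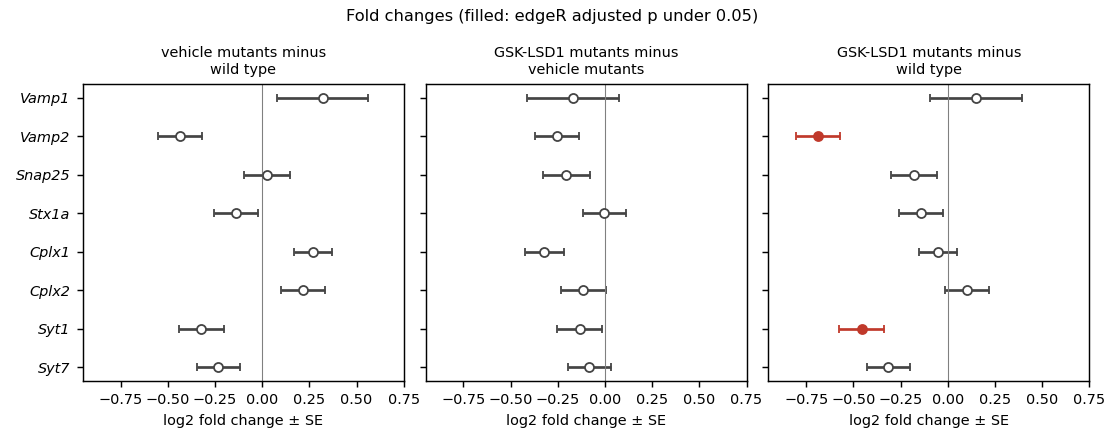
Log2 fold change of each of the 8 genes in the 3 comparisons, with bars of 1 SE from edgeR's fit. Filled points have an adjusted p under 0.05, which holds for Vamp2 (-0.69) and Syt1 (-0.45) between GSK-LSD1 and wild type, and no point is filled in the other 2 panels.

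The make-up of the machinery can also be read as each gene's share of the reads of all 8, which needs no scaling between libraries. Vamp2 took 8.01% and 6.49% of these reads in wild type, 5.90% and 5.70% in vehicle mutants, and 5.09% and 5.85% in GSK-LSD1 mutants. Syt1 took 37.6% and 36.4% in wild type and 32.0% to 33.2% in the 4 mutant libraries. Shares of both genes were thus lower in every mutant library than in either wild-type library. Cplx1 took 3.65% and 3.85% in wild type, 4.68% and 5.12% in vehicle mutants, and 4.15% and 4.65% in GSK-LSD1 mutants. Cplx2 took 8.26% and 8.95% in wild type and 10.5% to 11.7% in the mutant libraries. The complexin shares were higher in every mutant library, and so was that of Snap25, at 30.5% and 34.1% in wild type and 34.1% to 36.9% in the mutants, though its lowest mutant value was level with wild-type library 2. Shares add up to a whole, so a lower share of Syt1, the largest in wild type, by itself makes the others higher.

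Across the 6 libraries, Vamp2, Syt1 and Syt7 had similar profiles. Pearson's r of log2 CPM was 0.92 for Vamp2 and Syt1, 0.83 for Vamp2 and Syt7, 0.88 for Syt1 and Syt7, and 0.91 for Stx1a and Syt7. The complexins correlated with each other at 0.60, and Vamp2 with Cplx2 at -0.50 and with Vamp1 at -0.22. These 6 points hold the group differences themselves and share library depth and scaling, so they are a description. Among 9279 other genes with a mean of at least 10 CPM, the profile most like that of Vamp2 was that of Zmiz2 (r = 0.997), then Zmat3 and Wipf2, and 207 genes (2.23%) had r above 0.95. For Syt1 the genes named are St3gal5 and Opcml (each 0.993), with 182 genes above 0.95, and for Syt7 Txndc11 (0.996), Syngr1 and Tmem108, with 132. Far fewer genes resembled the others: 44 for Stx1a, led by Pip4k2b (0.992), 29 for Cplx2, led by Dynlt3 (0.993), and 16 for Vamp1, led by Cdc37l1 (0.982). For Snap25 there were 14, led by Impad1 (0.989), and for Cplx1 13, led by Usp16 (0.976).

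The other genes of vesicle and membrane fusion were read from lists of 68 genes, of which 63 were tested. In vehicle mutants against wild type 1 rose and 1 fell by edgeR's test, where 0.278% of all genes were called higher and 0.994% lower. Between the mutant groups 0 passed, also by DESeq2 or limma-voom. Between GSK-LSD1 and wild type 1 fell, where 1.99% of all genes were called lower. At edgeR's unadjusted p under 0.05 there were 10, 2 (both higher) and 11 of the 63 in the 3 comparisons. Over all genes the shares were 14.0%, 5.70% and 15.7%. The medians of the 63 genes in the 3 comparisons were -0.045, -0.02 and -0.06. Vamp7, Cplx4, Syt8, Prrt2 and Stx11 had too few reads to be tested.

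Synaptotagmins other than Syt1 and Syt7 held 1 of these genes. Syt17 lay at 100.1 and 85.6 CPM in wild type, 61.3 and 68.5 in vehicle mutants, and 90.7 and 78.8 in GSK-LSD1 mutants. It fell by 0.51 ± 0.12 in vehicle mutants against wild type, to 0.70 of its level (edgeR's adjusted p = 0.0391). The call was lost in 10 of 19 alternatives, with adjusted p from 0.00151 to 0.538, the highest without wild-type library 1, and it was also lost without vehicle mutant library 1 or 2 (adjusted p = 0.247 and 0.122). With GSK-LSD1 it was higher than in vehicle mutants by 0.39 ± 0.12 without passing (edgeR's adjusted p = 0.499), and both comparisons use the same vehicle mutant libraries. Of the 16 tested members of the whole family, Syt1 and Syt7 included, 15 had a negative difference in vehicle mutants against wild type and 14 in GSK-LSD1 mutants against wild type, with medians of -0.19 and -0.17. Over all tested genes 47.7% and 47.4% were negative, with medians of 0.02 in both comparisons. With library size scaling 11 and 10 of the 16 were negative, beside 36.5% and 35.7% of all genes, and with scaling to pan-neuronal markers 14 and 10, beside 46.2% and 31.0%, with medians for the 16 of -0.18 and -0.05. Among them Syt4, which lacks the usual calcium response, and Syt11 differed by -0.37 ± 0.12 and -0.31 ± 0.11 between GSK-LSD1 and wild type (edgeR's adjusted p = 0.115 and 0.174).

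SNARE chaperones and binding proteins held the other 2 genes that passed. Stxbp3, a Munc18 protein that serves syntaxins outside synapses, lay at 6.85 and 8.96 CPM in wild type, 15.1 and 14.6 in vehicle mutants, and 10.5 and 12.9 in GSK-LSD1 mutants. It rose by 0.89 ± 0.19 in vehicle mutants against wild type, to 1.86 times its level (edgeR's adjusted p = 0.0302). This call was lost in 7 of 19 alternatives, with adjusted p from 5.12e-04 to 0.476, among them the fits without wild-type library 1 (0.476) and without vehicle mutant library 1 or 2 (0.143 and 0.122). Sncb, which encodes the presynaptic protein beta-synuclein, lay at 236 and 163 CPM in wild type, 133 and 133 in vehicle mutants, and 102 and 128 in GSK-LSD1 mutants. It fell by 0.79 ± 0.17 in GSK-LSD1 mutants against wild type (edgeR's adjusted p = 0.0403), and its 2 wild-type libraries differed more than the mutant groups did. The call was lost in 9 of 19 alternatives, with adjusted p from 1.31e-08 to 0.22, and the difference was -0.51 without wild-type library 1 (adjusted p = 0.22). It was also lost without GSK-LSD1 library 1 (adjusted p = 0.0751) and without vehicle mutant library 1 (adjusted p = 0.055). In vehicle mutants Sncb differed from wild type by -0.58 ± 0.17 without passing (edgeR's adjusted p = 0.144). Between GSK-LSD1 and vehicle mutants it differed by -0.21 ± 0.17 (edgeR's adjusted p = 0.988). In all, 19 of 20 listed genes of this group were tested.

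Of the 6 other tested SNAREs of vesicles, 0 passed by edgeR, DESeq2 or limma-voom in each comparison. At edgeR's unadjusted p under 0.05 there were 1, 0 and 1 of them, beside 14.0%, 5.70% and 15.7% of all genes. Vamp3, or cellubrevin, lay at 25.8 and 25.4 CPM in wild type, 35.9 and 34.7 in vehicle mutants and 29.04 and 40.2 in GSK-LSD1 mutants. It differed from wild type by 0.46 ± 0.14 and 0.43 ± 0.14 (edgeR's adjusted p = 0.117 and 0.132), opposite in sign to Vamp2. Snap23, which encodes a relative of SNAP-25, lay at 7.39 and 7.15 CPM in wild type, 8.83 and 11.6 in vehicle mutants and 7.29 and 9.13 in GSK-LSD1 mutants. It differed from wild type by 0.49 ± 0.20 in vehicle mutants (edgeR's adjusted p = 0.276). In GSK-LSD1 mutants it differed from wild type by 0.17 ± 0.21 (edgeR's adjusted p = 0.774), with overlapping libraries. The sum of 12 astrocyte markers was also higher in both mutant groups, at 4050 to 4965 CPM in wild type and 5462 to 5684 in the 4 mutant libraries. By edgeR's test 3 of the 12 rose in vehicle mutants and 4 in GSK-LSD1 mutants, beside 0.278% and 0.636% of all genes. In each of these comparisons with wild type 10 of the 12 had a positive difference and 2 a negative one. The oligodendrocyte sum was higher in vehicle mutants and in GSK-LSD1 library 2, but not in GSK-LSD1 library 1, where it lay within the wild-type range. Their part in the values of Vamp3 and Snap23 was not tested. Cplx3, the complexin of ribbon synapses and deep cortical cells, lay at 8.02 to 17.5 CPM over all libraries and 0 of its differences passed (edgeR's adjusted p = 0.626, 0.989 and 0.949). Of 16 tested SNAREs of endosome and Golgi traffic 0 passed in any comparison by edgeR, DESeq2 or limma-voom, and the medians were -0.06, 0.02 and -0.02. Of the 16, 1, 0 and 1 had an edgeR unadjusted p under 0.05, beside 14.0%, 5.70% and 15.7% of all genes. The 2 with the smallest p there were Stx12 (-0.23 ± 0.10 in vehicle mutants, edgeR's adjusted p = 0.344) and Use1 (0.25 ± 0.12 in GSK-LSD1 mutants against wild type, edgeR's adjusted p = 0.314).

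**Figure D4:**
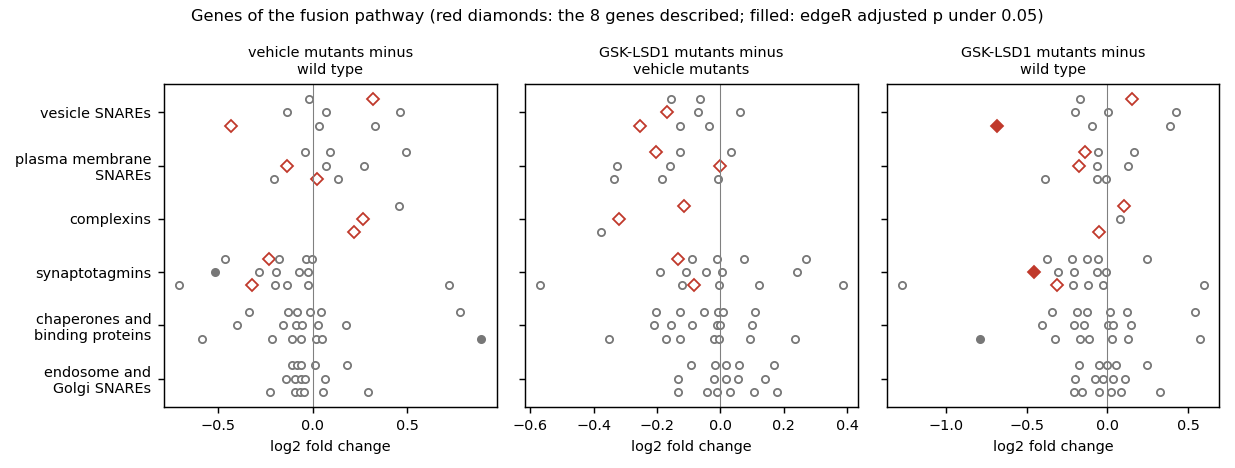
Log2 fold change of every tested gene of the fusion pathway, 1 row of points for each list, in the 3 comparisons. Red diamonds are the 8 genes, grey circles the 63 others, and filled symbols have an edgeR adjusted p under 0.05: Syt17 and Stxbp3 in the left panel, and Vamp2, Syt1 and Sncb in the right one. The horizontal axes of the 3 panels differ in range.

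Upstream sequence was at hand for 5 of the 8 genes, in 6 windows of the RefSeq promoter table (GRCm38.p6). These are Vamp1, Stx1a, Cplx1, Cplx2 and Syt1, the last with 2 start sites. The 250 bases before the start are printed for Syt1, which fell in GSK-LSD1 mutants against wild type, and for Cplx1, which had the smallest p of the 8 between the mutant groups. They run 5′ to 3′ on the gene's strand, with matches to the letters GGGCGG or TGACG on either strand in capitals. The Syt1 window is chr10:109010976-109011225 and the Cplx1 window chr5:108550028-108550277, both on the minus strand. The Cplx2 window, chr13:54302306-54302555, lies far before the Cplx2 span given above, at a RefSeq start outside that GENCODE gene.
Syt1: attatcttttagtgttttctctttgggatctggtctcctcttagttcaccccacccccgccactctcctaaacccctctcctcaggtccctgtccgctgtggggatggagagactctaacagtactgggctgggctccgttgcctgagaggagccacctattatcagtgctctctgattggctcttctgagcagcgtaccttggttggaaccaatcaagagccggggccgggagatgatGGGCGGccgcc
Cplx1: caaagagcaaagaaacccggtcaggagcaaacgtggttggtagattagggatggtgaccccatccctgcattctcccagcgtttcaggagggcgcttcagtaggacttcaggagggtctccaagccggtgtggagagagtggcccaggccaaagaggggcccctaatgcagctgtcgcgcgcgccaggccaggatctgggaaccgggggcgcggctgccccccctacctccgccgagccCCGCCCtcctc
GC content was 56.4% in the Syt1 window and 64.8% in that of Cplx1, beside a median of 52.4% over all 32851 windows of the table. GGGCGG, the core that Sp1 binds, was found on either strand in 4 of the 6 windows, each taken with the 50 bases after the start (Vamp1, Stx1a, Cplx1 and 1 of those of Syt1), and in 35.7% of all windows. TGACG, a part of the cyclic AMP response element, was found in 2, those of Stx1a and Cplx1, and in 20.8% of all windows. The full element TGACGTCA (1.79% of all windows), the EGR site GCGTGGGCG (0.612%) and the RE1 element, which the repressor REST binds and searched by name (0.0335%), were in 0 of the 6. The 2 printed windows thus share a GGGCGG match 11 bases before the start, on opposite strands, and such matches are letters in a window and no measure of binding.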

How the data were processed

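The measurements are bulk RNA-seq of prefrontal cortex tissue from 6 mice, 2 in each of 3 groups. Per the labels' protocols, ribosomal RNA was removed from total RNA and strand-specific libraries were sequenced by Illumina. The authors deposited raw read counts per gene symbol, 1 table for each library. Per the submitters' processing notes, cutadapt, TopHat2, SAMtools, featureCounts and edgeR were used with the build mm10 (GRCm38). Their versions, the annotation and whether counting used strand are not stated there, and antisense reads may be counted with a gene.

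From these counts, genes were filtered with filterByExpr and scaled by trimmed means, and a model of 3 group means over all 6 libraries was fitted in edgeR 4.0.16 (R 4.3.3) with robust quasi-likelihood tests, 3 residual degrees of freedom before moderation and a threshold of 0.05 on the Benjamini-Hochberg adjusted p over 18705 genes. The SE is the log2 difference divided by the root of its F. CPM uses the scaled library sizes, and log2 CPM a prior count of 0.5. The 15194848 to 28646960 reads of the wild-type libraries, 21488920 to 21734688 of vehicle mutants and 14133834 to 23538125 of GSK-LSD1 mutants put 3 reads at 0.105 to 0.212 CPM. Read ratios of paralogs were compared with exact permutation tests. The model was tested on simulated counts, where fold changes were recovered and more unchanged genes were called than the threshold states, so calls close to it are weak.

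The 8 genes and the lists were chosen with earlier results of these data known. Named are all 8 genes, the genes of each pathway list that passed (otherwise its 2 smallest p, of which those bearing on the 8 genes are described), and the 3 most similar profiles per gene. Some genes that this rule names are not reported here. Alternatives were other scalings (including to pan-neuronal markers), filters, DESeq2 1.42.0, limma-voom (limma 3.58.1), a fit that was not robust, 4 libraries only, the replicate number as a block, offsets for exon length and GC content (mgcv 1.9.3, with values for 98.7% of tested genes), an oligodendrocyte covariate, a threshold of 0.10, and each library left out in turn.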

Additional observations from a re-analysis of the deposited data

How the results depend on the processing

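With 2 libraries a group, calls near the threshold depended on the fit, and the cause was not tested. In vehicle mutants against wild type, where 0 of the 8 genes passed, 1 passed (Vamp2) with no filter, with only the 4 libraries compared and at a threshold of 0.10, and 2 passed (Vamp2 and Syt1) by DESeq2. Leaving out 1 library gave 0 to 1. Between GSK-LSD1 and vehicle mutants 0 passed in each alternative run. Between GSK-LSD1 and wild type, where 2 passed, only Vamp2 passed (1 of 8) with RLE, upper quartile or library size scaling, without the robust option, with only the 4 libraries, with length and GC offsets and with the oligodendrocyte covariate. Scaling to pan-neuronal markers left 0, and leaving out 1 library gave 0 to 2, with 0 without wild-type library 1. With the replicate number as a block 0, 0 and 2 of the 8 passed in the 3 comparisons. Deviations of libraries with the same number correlated at only -0.06, -0.07 and 0.07 over 10027 genes. With 2 libraries a group, these values cannot show whether the numbers pair the mice. The block gave 233, 18 and 505 calls over all genes.

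Of 456 single values 20 changed sign, 15 lost a call, 7 gained one and 414 did neither. The oligodendrocyte covariate turned Vamp1 to -0.27, 0.13 and -0.14 in the 3 comparisons and Stx1a to 0.0017 in the first. Length and GC offsets turned Snap25 to -0.0879 in the first. Library size scaling turned Stx1a to 0.0041 in the second comparison and Cplx1 to 0.0301 in the third. Scaling to pan-neuronal markers turned Stx1a to 0.11 and Syt7 to 0.0238 in the second and Cplx1 to 0.0727 in the third. Leaving out 1 library moved Snap25 from -0.0924 to 0.13 in the first comparison. In the second it moved Vamp1 from -0.56 to 0.15, Stx1a from -0.13 to 0.12, Cplx2 from -0.27 to 0.0261 and Syt7 from -0.21 to 0.0328, and in the third Vamp1 from -0.24 to 0.47 and Cplx2 from -0.0549 to 0.24. None of these values that changed sign had passed. Counting error was at most 4.18% of a value for the 8 genes, and 2 mice a group limit each comparison.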
